A study of Mus musculus with 24 samples.

Results

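The microRNAs (miRNAs) described here are processed from 5 hairpins that lie in the introns of Htr2c, the gene of the serotonin 2C receptor, on the mouse X chromosome. They were chosen by name, as 8 mature miRNAs of the hairpins Mir764, Mir1912, Mir1264, Mir1298, and Mir448 (mmu-miR-448-3p, mmu-miR-764-3p, mmu-miR-764-5p, mmu-miR-1264-3p, mmu-miR-1264-5p, mmu-miR-1298-5p, mmu-miR-1298-3p, and mmu-miR-1912-3p, written below with no prefix). Of these, 7 were among the 1531 mouse entries of the count tables, and miR-764-3p was not analysed here. The tables came from small RNA libraries of the right cerebellum, right striatum/thalamus, and right cortex of 8 CD1 mouse pups at postnatal day 9, so that 24 libraries were analysed. In 4 pups (numbers 1, 4, 5, and 7) hypoxic-ischemic brain injury (HIBI) was produced by cautery of the right carotid artery and, after 2 h of recovery, 30 min in 8% oxygen. The other 4 pups (numbers 2, 3, 6, and 8) were sham controls, whose neck was dissected with no ligation and which stayed in normal air. Brains were collected 30 min after injury, and both sexes were used, with the sex of each pup not given in the sources used here. The libraries held from 1254185 to 3406624 counts of mouse miRNAs, and the 7 members together made up 0.111% of all cerebellar counts, 0.0545% of those of the striatum/thalamus, and 0.0387% of cortical counts.

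A miRNA gene is transcribed as a long precursor from which a hairpin is cut, and the 2 arms of the hairpin (5p and 3p) give the mature strands, of which usually 1 is kept by the silencing complex. MiRNAs in an intron can be transcribed together with their host gene. Htr2c is a receptor of neurons and is also known for its very high expression in the epithelium of the choroid plexus, the tissue in the ventricles that makes cerebrospinal fluid. A mature miRNA finds its target messenger RNAs mainly through bases 2 to 8, the seed.

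The mature strands are shown because they tell the members apart and because no pair of them shares a seed. They were read from RefSeq (GRCm38.p6), where 7 of the 8 members and 1 further arm, miR-448-5p, were matched. They are written 5′ to 3′ in lower case with the seed in capitals. No sequence was matched for miR-1264-5p.
miR-1298-5p: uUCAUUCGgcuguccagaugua
miR-1298-3p: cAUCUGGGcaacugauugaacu
miR-448-3p: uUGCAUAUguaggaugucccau
miR-448-5p: gAACAUCCugcauagugcugcc
miR-1264-3p: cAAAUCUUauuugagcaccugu
miR-1912-3p: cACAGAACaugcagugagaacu
miR-764-5p: gGUGCUCAcauguccuccu
miR-764-3p: aGGAGGCCauaguggcaacugu
Among the 1738 mature mouse miRNAs of that table, only miR-764-3p shared its seed with another entry, miR-7062-5p.

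The hairpins of Mir1298 and Mir448 are shown because most of the counts and the clearest differences between arms came from them, with both mature arms in capitals.
Mir1298: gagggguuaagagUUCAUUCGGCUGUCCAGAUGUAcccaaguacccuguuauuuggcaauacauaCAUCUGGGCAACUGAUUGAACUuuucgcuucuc
Mir448: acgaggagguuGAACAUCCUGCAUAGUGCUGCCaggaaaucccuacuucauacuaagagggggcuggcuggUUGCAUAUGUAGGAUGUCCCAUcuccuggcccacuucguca
In GRCm38, Htr2c runs from chrX:146962513-147197277 on the plus strand, and the hairpins lie in it on the same strand. Mir764 (chrX:147002259-147002366), Mir1912 (chrX:147009441-147009527), Mir1264 (chrX:147010601-147010686), and Mir1298 (chrX:147064905-147065002) are in intron 2 of the 5 introns of the transcript Htr2c-201. Mir448 (chrX:147158210-147158321) is in intron 4. No exon of the 7 annotated Htr2c transcripts overlaps any of them, and the 5 hairpins span 156063 bases. Members of 1 hairpin, and all members if they are made with the host transcript, are therefore not independent of each other.

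The cluster was dominated by a single strand. Over the 24 libraries miR-1298-5p had 22802 reads, which was 63.4% of the reads of all members, and it was the most abundant member in 24 of 24 libraries. MiR-448-3p followed with 7782 reads (21.6%), and the opposite strand of Mir1298, miR-1298-3p, had 3172 (8.82%). The strands of Mir1264 were much rarer, with 1181 reads of miR-1264-5p and 898 of miR-1264-3p. MiR-1912-3p had 131 reads, with at least 1 in 18 of the 24 libraries. MiR-764-5p had 2 reads, both in the cerebellum, 1 in sham pup 6 and 1 in HIBI pup 7. Levels are given in CPM, read counts scaled to a common depth. Its 0 reads in the other regions allow at most 0.194 CPM (striatum/thalamus) and 0.143 CPM (cortex), by a limit of 3 reads for a count of 0 that covers counting error only. It was therefore given no test, and 6 members were fitted. MiR-1912-3p averaged below the filter of 10 CPM in every comparison and was kept in the fits only because members with at least 10 reads were, so it is left out of the counts and medians of members below and given by its reads. The 5p arm of Mir448, which is not a member by the list of names, had 2015 reads and is described with its hairpin. MiR-1912-5p had 3 reads, all in the cerebellum of sham pup 2.

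Levels below are in CPM after scaling by the trimmed mean of M-values (TMM), in which 3 reads of a library are worth between 0.907 and 2.13 CPM. The cerebellum of sham pups held the most miR-1298-5p, with 1923, 803, 135, and 902 CPM in pups 2, 3, 6, and 8. In their striatum/thalamus the same pups had 158, 179, 224, and 132 CPM. In their cortex they had 172, 135, 187, and 160 CPM. In 3 of the 4 sham pups the cerebellum thus stood far above the other regions, while in pup 6 it was the lowest of the 3.

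Sham pups were compared between regions to show where the cluster is found without injury. With edgeR's quasi-likelihood test, a member was called when its adjusted p was under 0.05 and its fold change above 1.5. Between cerebellum and cortex 3 of the 5 members above 10 CPM were called, all higher in the cerebellum, where 60.6% of the 424 miRNAs tested were called and 31.4% were called higher. The median log2 difference was 1.38 over the 5 members and 0.14 over all miRNAs tested. MiR-1298-5p was higher by 2.54 (standard error [SE] 0.486, adjusted p = 0.000395), or 5.81-fold. MiR-448-3p was higher by 2.23 (SE 0.391, adjusted p = 0.000194), or 4.68-fold. MiR-1264-3p was higher by 1.38 (SE 0.480, adjusted p = 0.0208), and lost the call without pup 2, 3, or 8 (lowest value 1.08, without pup 2) and with a filter at 1 CPM (1.16). Its average of 13.1 CPM in sham pups passed 10 CPM only through the cerebellum. The sham means were 24.8 CPM in the cerebellum, 9.59 CPM in the cortex, and 7.08 CPM in the striatum/thalamus. It was thus counted, here and in the next comparison, only through the region where it was high. MiR-1912-3p had 39 reads in the 4 sham cerebella, 5 in the 4 sham striatum/thalamus libraries, and 3 in the 4 sham cortices, so that its fitted fold changes depend on the prior count of the model and are not given. MiR-1264-5p (0.87, SE 0.634) and miR-1298-3p (0.43, SE 0.324) were not called.

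Between cerebellum and striatum/thalamus of sham pups 3 of the 5 members were called, again all higher in the cerebellum, against 62.5% of all 424 miRNAs called and 30.0% called higher. They were miR-1298-5p with 2.36 (SE 0.483), miR-1264-3p with 1.72 (adjusted p = 0.00696), and miR-448-3p with 1.11 (SE 0.378). The last lost the call without pup 2 (0.66) or without pup 8 (1.07), and miR-1264-3p without pup 2 (1.11). Between striatum/thalamus and cortex only miR-448-3p was called, with 1.12 (SE 0.383, adjusted p = 0.0291), against 36.6% of all miRNAs called and 21.5% called higher. It lost the call without pup 3 (0.88) or pup 8 (0.98), with upper quartile scaling (0.96), and with a filter at 1 CPM (0.88). In sham pups the members called were thus highest in the cerebellum, and miR-448-3p alone was called higher in the striatum/thalamus than in the cortex, under the settings that kept that call.

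**Figure D1:**
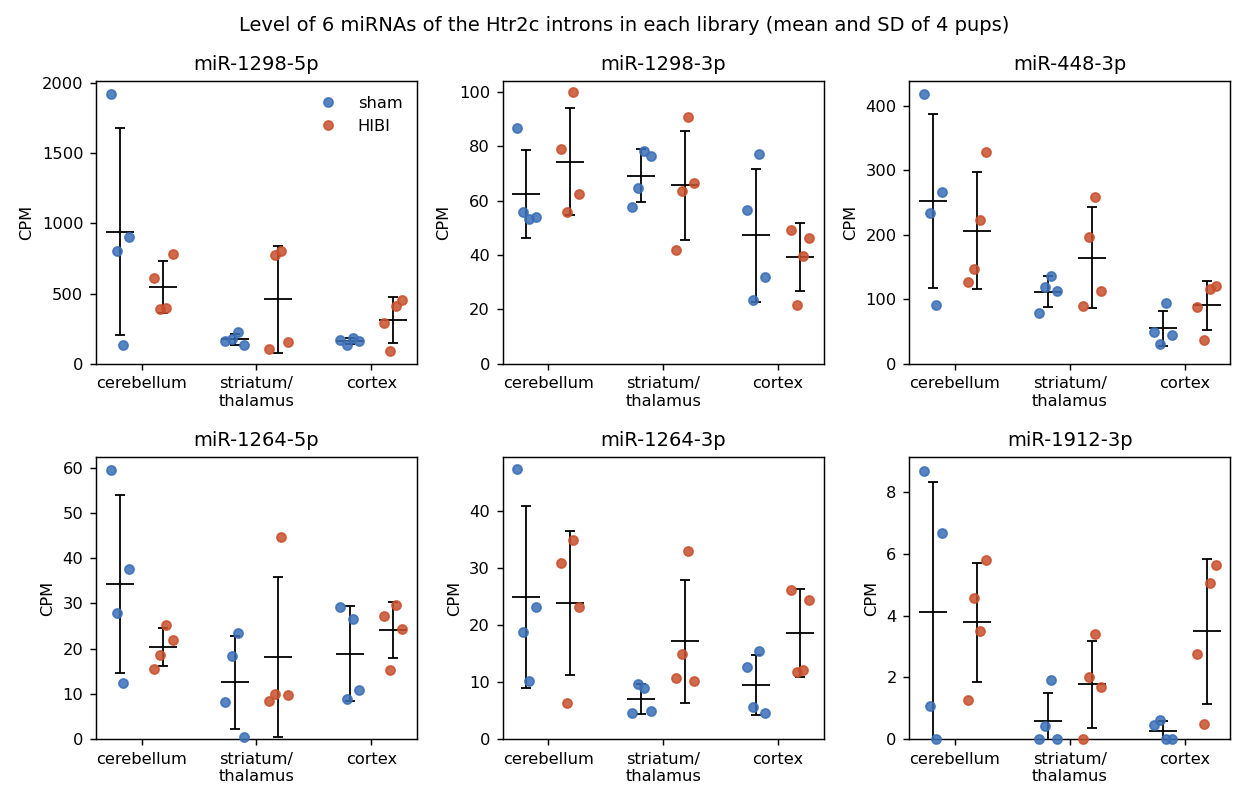
Level of the 6 fitted members in CPM (linear axes from 0, a different range in each panel) in the cerebellum, striatum/thalamus, and cortex; points are single pups, horizontal lines are means, and bars are the SD of 4 pups, cut off at 0. MiR-1298-5p of sham pups reached 1923 CPM in 1 cerebellum and stayed between 132 and 224 CPM in the striatum/thalamus and cortex, while miR-1298-3p stayed at or below 100.1 CPM in all libraries.

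The same regions were compared in HIBI pups, and whether their differences departed from those of sham pups was not tested for each pair of regions. Their miR-1298-5p was 612, 393, 398, and 779 CPM in the cerebellum of pups 1, 4, 5, and 7. It was 102, 775, 803, and 154 CPM in their striatum/thalamus and 289, 93.1, 412, and 456 CPM in their cortex. In pups 4 and 5 the striatum/thalamus therefore exceeded the cerebellum, while in pups 1 and 7 the cerebellum was the highest region. No member was called between cerebellum and striatum/thalamus in HIBI pups, against 49.0% of 447 miRNAs (26.8% called higher), and none between striatum/thalamus and cortex, against 28.0% (15.0%). At an unadjusted p under 0.05 the count was 0 of the 5 in the first comparison and 1 in the second (miR-1298-3p). Between cerebellum and cortex 2 were called, miR-448-3p (1.28, SE 0.433, adjusted p = 0.0373) and miR-1298-3p (1.00, SE 0.334, adjusted p = 0.0354), against 29.5% (17.4% called higher). Leaving out any 1 of the 4 HIBI pups, or upper quartile scaling, left no call in that comparison, and a filter at 1 CPM left that of miR-448-3p. MiR-1298-5p had 0.89 (SE 0.599, adjusted p = 0.261) there.

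**Figure D2:**
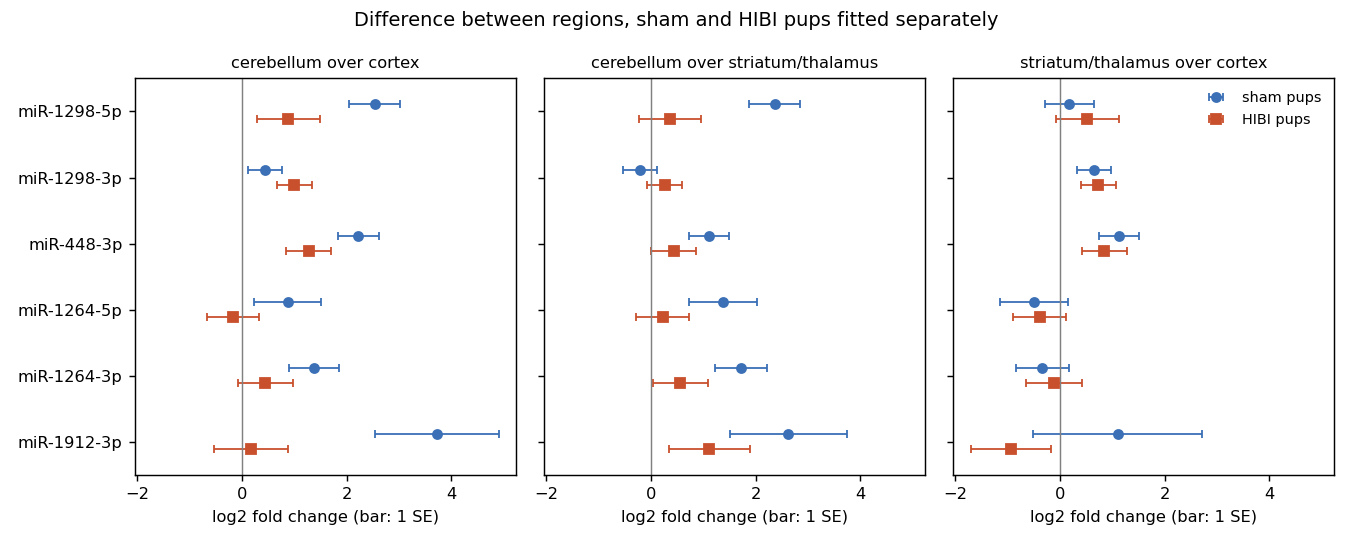
Log2 fold change between regions (horizontal axis, bars of 1 SE) of the 6 fitted members, in sham pups (blue circles) and HIBI pups (orange squares), which were fitted separately. For miR-1298-5p the cerebellum over cortex value was 2.54 in sham and 0.89 in HIBI pups, and for miR-448-3p it was 2.23 and 1.28; the points of miR-1912-3p rest on few reads and depend on the prior count.

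Because each pup gave all 3 regions, the regions were also compared within pups with an exact paired permutation test over the 8 pups, two-sided, whose smallest possible p is 0.0078. In the 8 pups miR-448-3p was higher in the cerebellum than in the cortex in 7 (mean difference of log2(CPM + 1) 1.66, SD 1.14, exact p = 0.0156). It was also higher in the striatum/thalamus than in the cortex in 7 (0.99, SD 0.881, exact p = 0.0234). MiR-1298-5p was higher in the cerebellum than in the cortex in 6 of 8 pups (1.49, SD 1.38, exact p = 0.0312), and its differences from the striatum/thalamus did not pass (1.34, SD 1.91, exact p = 0.0859). MiR-1298-3p was higher in both the cerebellum (0.72, SD 0.611, 7 of 8 pups, exact p = 0.0234) and the striatum/thalamus (0.71, SD 0.710, 7 of 8, exact p = 0.0391) than in the cortex. Its cerebellum and striatum/thalamus differed by 0.014 (SD 0.506, exact p = 0.9375). These p values are 21 in all and are not adjusted for their number, and none would stay under 0.05 if they were. Over the 8 pups both strands of Mir1298 thus had their lowest mean in the cortex, and miR-1298-5p had its highest in the cerebellum. MiR-1298-3p was higher in the cerebellum than in the striatum/thalamus in only 3 of 8 pups. In sham pups its mean was 62.5 CPM in the cerebellum and 69.2 CPM in the striatum/thalamus. A difference between the strands was not tested here.

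The second question was how HIBI and sham pups differed in each region. The criteria were a fold change above 1.5, an unadjusted p under 0.05, and an average above 10 CPM. In the cerebellum 0 of the 5 members met them, by edgeR and by DESeq2, against 8.05% of 435 miRNAs (3.91% higher). Of those 35 miRNAs 17 were higher in HIBI pups, and this split depended on the scaling, with 41 of 51 higher by library size alone and 7 of 46 by upper quartile. At an unadjusted p under 0.05 alone the members counted 0 as well. MiR-1298-5p had a mean of 941 ± 738 CPM in sham and 545 ± 186 CPM in HIBI cerebella (SD, n = 4 each), with overlapping groups. Its log2 fold change was -0.73 (SE 0.546, adjusted p = 0.525), and it was -0.17 without sham pup 2 and -1.15 without sham pup 6, when it and miR-1264-5p met the criteria. The other 4 had log2 fold changes between -0.71 (miR-1264-5p, SE 0.409) and 0.28 (miR-1298-3p, SE 0.285). The sign of miR-1264-3p there changed with the scaling, so no direction is given, and miR-1912-3p had 39 reads in sham and 34 in HIBI cerebella.

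In the striatum/thalamus 2 of the 5 members met the criteria, both higher in HIBI pups, against 2.75% of 437 miRNAs (2.52% higher). MiR-1264-3p was 4.69, 9.62, 9.07, and 4.95 CPM in sham pups 2, 3, 6, and 8, and 10.7, 14.9, 33.0, and 10.1 CPM in HIBI pups 1, 4, 5, and 7. Its average of 12.2 CPM passed the criterion only through the HIBI pups (mean 17.2 CPM, beside 7.08 CPM in sham pups). For miR-1264-3p the criterion thus favoured a call higher in HIBI pups. Its groups did not overlap in CPM, which held for 2.29% of the 437 miRNAs, although the lowest HIBI value (10.1 CPM) was close to the highest sham value (9.62 CPM). In the same order of pups these levels rest on 8, 23, 19, and 10 sham reads and 15, 22, 68, and 24 HIBI reads. The reads before scaling overlapped, so the separation is weak. No other member had groups apart in any region, beside 3.68% of all miRNAs in the cerebellum and 4.14% in the cortex. The log2 fold change of miR-1264-3p was 1.18 (SE 0.510, p = 0.0404, adjusted p = 0.978), and an exact permutation test gave p = 0.0286, the smallest that 4 against 4 pups allow. MiR-1298-5p, whose values are given above, had a log2 fold change of 1.30 (SE 0.573, p = 0.0442, adjusted p = 0.978 by edgeR), while the exact permutation test gave p = 0.400. Its groups overlapped, with HIBI pups 4 and 5 above every sham pup, pup 7 among them, and pup 1 below every sham pup. Leaving out pup 2, 3, 4, 5, or 8 ended its call, with a lowest value of 0.84 without pup 5, and leaving out pup 2, 5, or 8 ended that of miR-1264-3p (0.62 without pup 5). The other members were miR-448-3p with 0.47 (SE 0.333), miR-1264-5p with 0.46 (SE 0.824), and miR-1298-3p with -0.16 (SE 0.279), while miR-1912-3p had 5 reads in sham and 14 in HIBI pups. With each pup left out in turn miR-448-3p ran from 0.14 to 0.76, and it met the criteria in 1 of the 8 cases.

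In the cortex 1 of the 5 members met the criteria, against 3.41% of 411 miRNAs (3.16% higher). MiR-1298-5p was higher in HIBI pups, at 313 ± 162 against 163 ± 21.8 CPM (SD, n = 4 each), a log2 fold change of 0.92 (SE 0.354, p = 0.0237, adjusted p = 0.749 by edgeR; exact permutation p = 0.229). HIBI pups 1, 5, and 7 lay above every sham pup and HIBI pup 4 below every sham pup. The call was lost without pup 3 (0.87), pup 5 (0.76), or pup 7 (0.69), and with all 24 libraries in 1 model (0.94). MiR-448-3p had 0.71 (SE 0.385) and miR-1264-3p 0.93 (SE 0.438), neither meeting the criteria, although each did under some alternatives. MiR-1912-3p had 1, 2, 0, and 0 reads in sham pups and 5, 1, 15, and 15 in HIBI pups. Its average of 1.84 CPM was below the criterion, and pup 4 lay among the sham pups (exact permutation p = 0.0571).

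Over the 5 members the median log2 fold change of HIBI over sham was -0.25 for the cerebellum, 0.47 for the striatum/thalamus, and 0.71 for the cortex, beside 0.11, -0.03, and -0.02 over all miRNAs tested. With the 10 CPM filter and edgeR's quasi-likelihood test no member had an adjusted p under 0.05 in any region, as did 0.243% of all miRNAs in the cortex (1 miRNA), and the members with an unadjusted p under 0.05 were 0, 2, and 1 of the 5. With no filter miR-1298-5p had an adjusted p of 0.0015 in the striatum/thalamus and of 0.0009 in the cortex by the same test, and without pup 4 it had 0.0315 in the cortex. In the striatum/thalamus and cortex miR-1298-3p had values of -0.16 and -0.28 (SE 0.378) while miR-1298-5p met the criteria. The further arm miR-448-5p had log2 fold changes of 0.32 (cerebellum), -0.28 (striatum/thalamus), and 0.26 (cortex) and met the criteria nowhere.

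**Figure D3:**
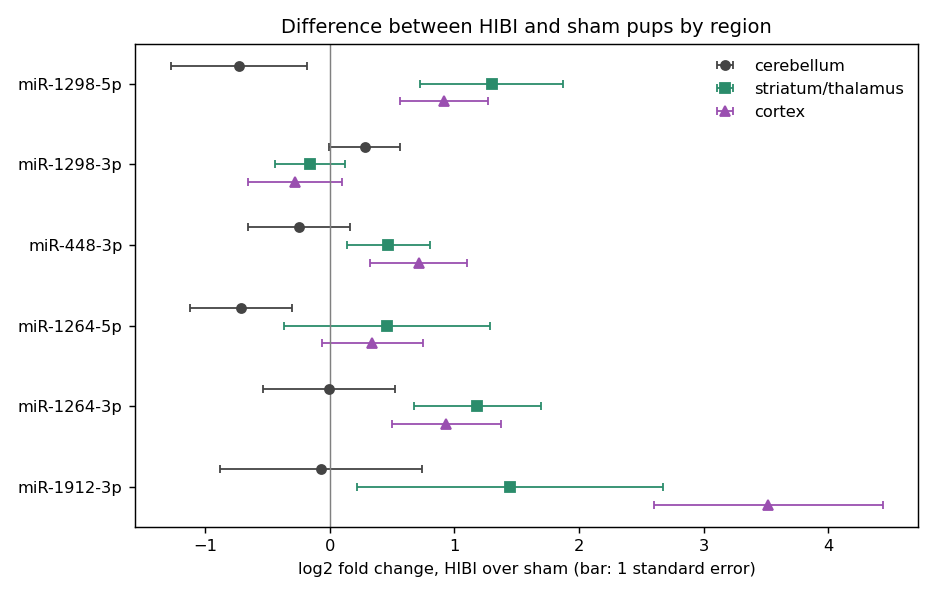
Log2 fold change of HIBI over sham pups (horizontal axis, bars of 1 SE) for the 6 fitted members in the cerebellum (circles), striatum/thalamus (squares), and cortex (triangles), 4 pups a group. MiR-1298-5p was at -0.73, 1.30, and 0.92, and its opposite strand miR-1298-3p at 0.28, -0.16, and -0.28; the points of miR-1912-3p rest on few reads and depend on the prior count.

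The cerebellum is outside the territory of the ligated artery and met hypoxia without ischemia, so the study set it against the other regions. The difference of the HIBI effect between the mean of striatum/thalamus and cortex and the cerebellum was therefore tested itself. It was 1.96 for miR-1298-5p (SE 0.724, unadjusted p = 0.0124, adjusted p = 0.227 over 436 miRNAs by edgeR). With limma in place of edgeR and the pup as a block it was 1.15 (unadjusted p = 0.133), and it was 1.33 without pup 2 and 1.55 without pup 5, when its unadjusted p was no longer under 0.05, and 2.43 without pup 6. The values of the others were 1.20 (miR-1264-5p, SE 0.766), 1.17 (miR-1264-3p, SE 0.645), 0.93 (miR-448-3p, SE 0.529), and -0.42 (miR-1298-3p, SE 0.403). Of the 5, miR-1298-5p alone had an unadjusted p under 0.05, a threshold that 16.3% of the 436 miRNAs passed, and no miRNA passed after adjustment. Which members passed it changed with the pups: without pup 6 miR-448-3p (1.47), miR-1264-3p (1.67), and miR-1264-5p (1.82) passed too, and without pup 7 miR-448-3p did (1.19), while without pup 2 none did, with 0.49 for miR-448-3p, 0.66 for miR-1264-3p, and 0.87 for miR-1264-5p. The lowest value of miR-1264-5p was 0.79, without pup 5, and miR-1298-3p ran from -0.61 to -0.14. Markers of other cell types were examined in the same contrast. An unadjusted p under 0.05 was found for 3 of 6 fitted miRNAs of choroid plexus and ciliated epithelium (miR-204-3p 1.88, SE 0.574; miR-34b-3p 1.49, SE 0.432; miR-204-5p 1.12, SE 0.396). It was also found for 2 of 3 of erythrocytes (miR-486a-5p 1.02, SE 0.354; miR-486b-5p 1.05, SE 0.340), 0 of 5 of neurons, and 0 of 1 of endothelium. The p of these 5 markers was lower than that of miR-1298-5p, none passed after adjustment, and their part in the values of the cluster was not tested.

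The share of 5p reads among the 5p and 3p reads of a hairpin compares strands of the same precursor within a library. In Mir1298 the 5p strand had more reads in 24 of 24 libraries, and its share ran from 63.3% to 95.7%. In the cerebellum it was 95.7%, 93.5%, 71.6%, and 94.3% in sham pups 2, 3, 6, and 8. In the striatum/thalamus it was 73.4%, 73.4%, 74.1%, and 63.3% in the sham pups and 70.9%, 92.4%, 89.8%, and 69.9% in HIBI pups 1, 4, 5, and 7. HIBI pups 4 and 5, with the most miR-1298-5p in the striatum/thalamus, had the highest 5p shares of that region. The cerebellum of sham pup 6 had both the lowest level and the lowest share of the cerebella. The miR-1298-5p reads are the numerator of the share, so level and share are not independent observations. The exact 95% binomial intervals, which cover counting error only, were 95.1 to 96.2% in the cerebellum of sham pup 2 and 66.9 to 75.9% in that of sham pup 6. The mean share was 88.0 ± 8.33% for the cerebellum, 75.9 ± 10.02% for the striatum/thalamus, and 82.9 ± 7.09% for the cortex (SD, n = 8 each). The cerebellum exceeded the striatum/thalamus by 12.1 percentage points (SD 15.4, 5 of 8 pups, exact permutation p = 0.0625), and no comparison of this hairpin passed 0.05.

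Mir448 was the reverse, with more 3p than 5p reads in 24 of 24 libraries. Its 5p share differed between some regions before adjustment, and no comparison passed after it. The 5p share was 15.4 ± 6.44% for the cerebellum, 34.1 ± 11.1% for the striatum/thalamus, and 20.1 ± 7.13% for the cortex (SD, n = 8 each). It was lower in the cerebellum than in the striatum/thalamus in 8 of 8 pups, by 18.8 percentage points (SD 12.9, exact permutation p = 0.0078, adjusted p = 0.0938 over the 12 comparisons of arm shares). It was higher in the striatum/thalamus than in the cortex in 7 of 8 pups, by 14.0 points (SD 11.1, exact permutation p = 0.0234, adjusted p = 0.141). In HIBI pups 4 and 5 the striatum/thalamus had 5p shares of 19.6% and 20.4%, the lowest of that region. The levels of the strands, which come from the same reads, showed the same contrast. MiR-448-5p was 73.9, 77.3, 94.98, and 36.6 CPM in the sham striatum/thalamus and 52.9, 26.3, 22.7, and 28.6 CPM in the sham cerebellum. The log2 difference of cerebellum from striatum/thalamus in sham pups was -1.18 for miR-448-5p (SE 0.390, adjusted p = 0.0147) and 1.11 for miR-448-3p. Between these regions both strands of Mir448 were thus called in sham pups, in opposite directions. Between cerebellum and cortex of sham pups both were called higher in the cerebellum, miR-448-5p with 1.11 and miR-448-3p with 2.23. Between striatum/thalamus and cortex both were called higher in the striatum/thalamus, with 2.29 (SE 0.406) and 1.12. In HIBI pups the last comparison gave 1.72 (SE 0.377) for miR-448-5p, which was called, and 0.84 for miR-448-3p, which was not. Over all 8 pups miR-448-5p was lower in the cerebellum than in the striatum/thalamus in 8 of 8 (-0.86, SD 0.617, exact permutation p = 0.0078), while miR-448-3p was higher in 5 of 8 (0.68, SD 1.05, exact permutation p = 0.117). MiR-448-5p was higher in the striatum/thalamus than in the cortex in 8 of 8 pups (2.00, SD 0.696, exact permutation p = 0.0078). In HIBI pups neither strand was called between cerebellum and striatum/thalamus. Mir1264 had a 5p share between 9.09% and 74.5%, with only 11 reads in its smallest library, and was not tested.

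**Figure D4:**
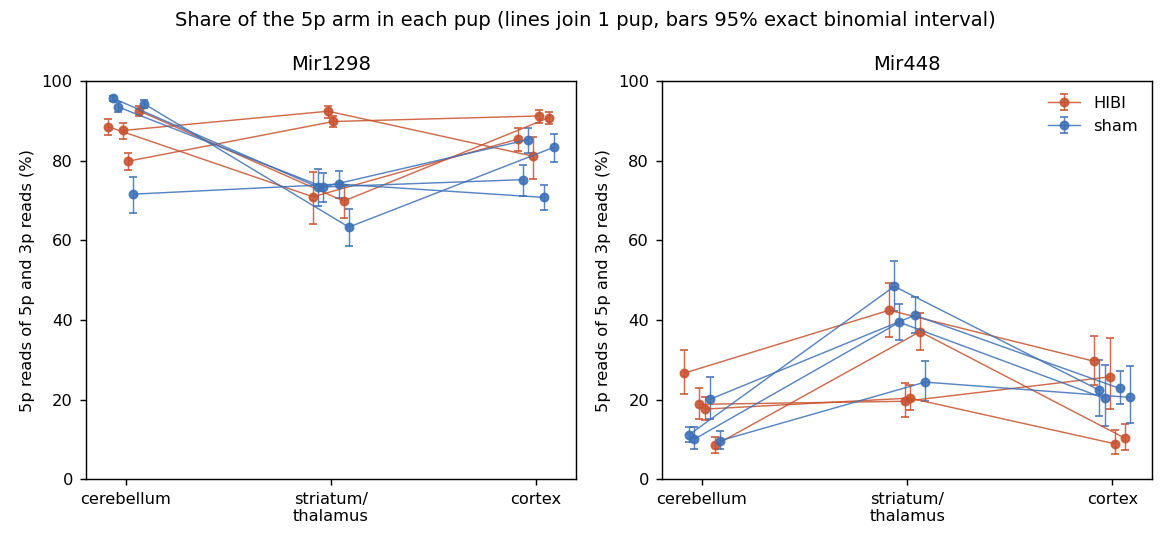
Reads of the 5p arm as a percentage of the 5p and 3p reads of the hairpin (vertical axis, 0 to 100%) in each region; each line joins the 3 regions of 1 pup and bars are exact 95% binomial intervals. Mir1298 lay between 63.3% and 95.7% in all libraries, and Mir448 rose from a mean of 15.4% in the cerebellum to 34.1% in the striatum/thalamus.

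The last question was whether the members vary together and with which other miRNAs. The study's tissues are bulk pieces of brain, so fewer cells of a type and less RNA per cell cannot be told apart. MiRNAs known from neurons (5 of 5 listed, miR-124-3p, miR-9-5p, and others) summed to between 82392 and 235390 CPM, and none was at 0 in any library. Of 13 listed miRNAs of choroid plexus and ciliated epithelium 10 were in the tables, and the defining ones, miR-204-5p, miR-34c-5p, and miR-449a-5p, were above 0 in all 24 libraries. MiR-204-5p, known for its abundance in choroid plexus and pigment epithelium, made up 71.5% to 94.99% of the summed level. The miR-34 and miR-449 families are known from cells with motile cilia.

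The summed level of the choroid plexus list moved with miR-1298-5p in the cerebellum, and in the other regions mainly through the pups named below. In the cerebellum it was 10322, 4702, 2608, and 4676 CPM in sham pups 2, 3, 6, and 8 and 3402, 2875, 2802, and 4103 CPM in HIBI pups 1, 4, 5, and 7. Sham pup 2 was highest and sham pup 6 lowest in both. In the striatum/thalamus it was 1931, 2636, 2432, and 2086 CPM in the sham pups and 1962, 3389, 4735, and 2451 CPM in the HIBI pups, where HIBI pups 4 and 5 again stood highest. In the cortex it was 2079, 2384, 2144, and 2592 CPM in sham pups and 2063, 2118, 3807, and 3454 CPM in HIBI pups, and HIBI pups 5 and 7 were the highest in both. The part of this tissue in the differences of the cluster was not tested.

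The members and the list were chosen with earlier results of these data known. The p values of these and the following relations, adjusted or not, do not cover that choice. Over the 8 pups, Pearson's r of miR-1298-5p with the choroid plexus list, both as log2(CPM + 1), was 0.88 in the cerebellum (exact permutation p = 0.0050, adjusted p = 0.0249 over the 45 relations computed). Spearman's rho was 0.95 (exact p = 0.0011, adjusted 0.0257), and r was 0.97 without pups 2 and 6, the farthest on the x axis (miR-1298-5p). In the striatum/thalamus r was 0.92 (exact permutation p = 0.0023, adjusted p = 0.0249) and rho 0.76 (exact p = 0.0368, adjusted 0.118), and r was 0.66 without pups 4 and 5 (exact p = 0.167), so that the relation there rests on those pups. In the cortex r was 0.72 (exact permutation p = 0.0482, adjusted p = 0.114), rho 0.36 (exact p = 0.389), and r -0.24 without pups 5 and 7, so the relation rests on these pups. With the means of the sham and HIBI groups subtracted, r was 0.94, 0.90, and 0.66 in the 3 regions. MiR-1298-3p had an r of 0.22, 0.62, and -0.06 with the same list (adjusted p = 0.681, 0.180, and 0.907, exact permutation), and of 0.50, 0.82, and 0.0022 with the group means subtracted, so that in the striatum/thalamus it came near the other strand.

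**Figure D5:**
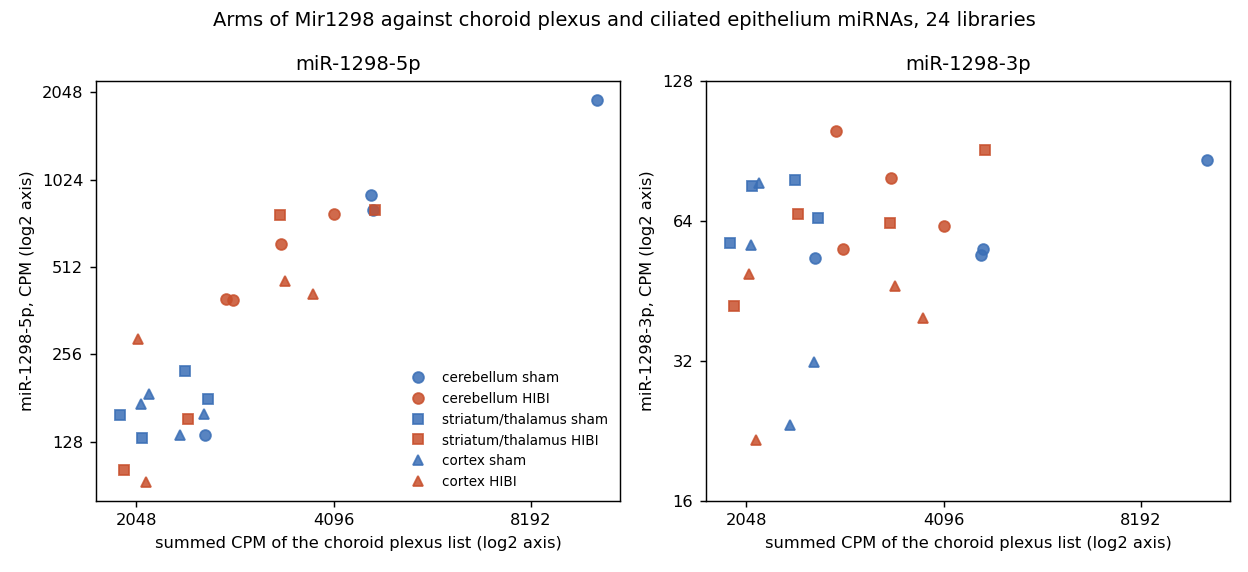
Level of miR-1298-5p (left) and miR-1298-3p (right) against the summed level of 10 choroid plexus and ciliated epithelium miRNAs, both in CPM on log2 axes, in the 24 libraries; colour marks sham or HIBI and shape the region. The 5p strand ran from 93.1 to 1923 CPM and the 3p strand from 21.7 to 100.1 CPM. Within the cortex the relation of the 5p strand to the list rests on pups 5 and 7 (r 0.72, and -0.24 without them). The 3p strand had r of 0.62 with the list in the striatum/thalamus, and a difference between the strands was not tested.

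Of the 30 relations between members, with r from 0.24 to 0.92, 6 had an adjusted p under 0.05 by the exact permutation test. They were the relation of miR-448-3p with miR-1298-5p in each region, those of miR-1264-5p with miR-448-3p (r 0.88) and with miR-1298-5p (0.85) in the cerebellum, and that of miR-1264-3p with miR-448-3p (0.85) in the striatum/thalamus. Without the 2 farthest pups the last 3 had r of 0.70, 0.50, and 0.39 (exact permutation p = 0.119, 0.326, and 0.443), so they rest on those pups, and their rho of 0.86, 0.88, and 0.60 did not pass (adjusted p = 0.0689, 0.0689, and 0.248, exact permutation). The strands of Mir1264 had r of 0.60, 0.72, and 0.80 with each other and did not pass (adjusted p = 0.180, 0.134, and 0.0679, exact permutation). MiR-448-3p and miR-1298-5p had r of 0.87 (cerebellum), 0.92 (striatum/thalamus), and 0.89 (cortex) (exact permutation p = 0.0044, 0.0037, and 0.0026, adjusted p = 0.0249 in each), with rho of 0.86, 0.83, and 0.95 (exact p = 0.0107, 0.0154, and 0.0011; adjusted 0.0689, 0.0865, and 0.0257). Without the 2 farthest pups r was 0.55, 0.60, and 0.89, so only the cortex kept an exact p under 0.05 (0.0069), and the relation rests on those pups in the other regions. The strands of Mir1298 itself were related less closely than these different hairpins, with r of 0.30, 0.54, and 0.48 (rho 0.29, 0.50, and 0.57; adjusted p = 0.543, 0.259, and 0.279, exact permutation), a difference that was not tested. For miR-448-3p and the choroid plexus list r was 0.79, 0.96, and 0.54 in the same order of regions (rho 0.81, 0.88, and 0.38; adjusted p = 0.0592, 0.0179, and 0.259, exact permutation). With that list miR-1264-5p had r of 0.88, 0.63, and 0.15, and miR-1264-3p of 0.60, 0.91, and 0.04. Of these the 0.88 and 0.91 passed (adjusted p = 0.0249 each, exact permutation). Without the 2 farthest pups they were 0.60 and 0.66 (exact permutation p = 0.211 and 0.15), so they rest on those pups. Their rho of 0.81 and 0.74 did not pass (adjusted p = 0.0891 and 0.1375, exact permutation). All these values share libraries and the scaling of each library.

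Across all 24 libraries and 430 other miRNAs above 10 CPM, the level most like that of miR-1298-5p was miR-204-5p (r 0.89), followed by miR-34c-5p (0.71), miR-92a-3p (0.70), let-7d-5p (0.69), and miR-30c-1-3p (0.67), while the median of the others was 0.10. With the mean of each region and group subtracted, the most alike were miR-204-5p (0.87), miR-378a-3p (0.62), miR-34b-3p (0.58), miR-34c-5p (0.56), and miR-34c-3p (0.56), with a median of 0.05. Within the cluster the same measure was 0.85 for miR-448-3p, 0.78 for miR-1912-3p, 0.62 for miR-1264-3p, and 0.56 for miR-1264-5p, with lower values of 0.51 for miR-1298-3p and 0.23 for miR-448-5p. By these deviations 4 of the 5 closest miRNAs outside the cluster were on the choroid plexus list, but miR-448-3p, miR-1912-3p, and miR-1264-3p of the cluster were closer than any miR-34. That list was chosen with earlier results of these data known. The list's other fitted miRNAs ranked 34 (miR-204-3p, 0.42) and 47 (miR-449a-5p, 0.38) by deviations. By level 2 of the 5 were on the list, and its other fitted miRNAs ranked 27 (miR-34c-3p), 47 (miR-449a-5p), 69 (miR-204-3p), and 104 (miR-34b-3p). The libraries of 1 pup are not independent of each other.

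Relative to the choroid plexus list, miR-1298-5p was not constant. It had 18.6, 17.1, 5.16, and 19.3 CPM per 100 CPM of the list in the cerebellum of sham pups 2, 3, 6, and 8, and 18.0, 13.7, 14.2, and 19.0 in that of HIBI pups. In the striatum/thalamus it had 8.20, 6.79, 9.22, and 6.31 in sham pups and 5.21, 22.9, 17.0, and 6.27 in HIBI pups 1, 4, 5, and 7. In the cortex it had 8.29, 5.68, 8.71, and 6.15 in sham pups and 14.0, 4.396, 10.8, and 13.2 in HIBI pups. HIBI pups 4 and 5 of the striatum/thalamus were the highest of that region, and sham pup 6 the lowest of the cerebella. The level of miR-1298-5p is the numerator of this ratio, so this is not independent of the levels given above.

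Among the listed markers themselves, miR-34b-3p met the unadjusted criteria in the striatum/thalamus (log2 fold change 0.75, SE 0.262, adjusted p = 0.978) and miR-204-3p, lower in HIBI pups, in the cerebellum (-1.22, SE 0.419, adjusted p = 0.434, both by edgeR). Of the fitted markers 1 of 6 met the criteria in the cerebellum, 1 of 7 for the striatum/thalamus, and 0 of 5 for the cortex (0 also at an unadjusted p under 0.05), with median log2 fold changes of -0.63, 0.64, and 0.48. The shares of all miRNAs meeting them were 8.05%, 2.75%, and 3.41%. In sham pups 5 of 6 were called higher in the cerebellum than in the cortex, where 31.4% of all miRNAs were, and 2 of 6 higher than in the striatum/thalamus, where 30.0% were. Between sham cerebellum and cortex 2 of 3 fitted erythrocyte miRNAs were also called higher, miR-486a-5p and miR-486b-5p with 1.27 each (SE 0.241 and 0.239), and the median of that list was 1.27, beside 1.46 for the choroid plexus list and 1.38 for the members. Between sham cerebellum and striatum/thalamus 3 of 5 fitted neuronal miRNAs were called higher and 0 lower, with a list median of 0.89. The medians there were 0.85 for the choroid plexus list and 1.37 for the members. Of the fitted erythrocyte miRNAs 0 of 3 were called higher there. The part of these lists in the cluster's values was not tested. MiR-204-5p itself met the criteria nowhere, with -0.72 for the cerebellum (SE 0.340), 0.31 for the striatum/thalamus (SE 0.304), and 0.31 for the cortex (SE 0.198). The summed erythrocyte list ran from 734 to 2649 CPM and the endothelial list from 975 to 4838 CPM. In the cerebellum 2 of 3 fitted erythrocyte miRNAs (miR-486a-5p and miR-486b-5p, adjusted p = 0.434 for each by edgeR) met the unadjusted criteria and were lower in HIBI pups, where 8.05% of all miRNAs met them in either direction, and their part in the cluster's values was not tested.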

How the data were processed

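Small RNA libraries were made by the study from 200 ng of RNA. The authors aligned reads with bowtie2 to mature mouse miRNAs of miRBase and deposited raw read counts per miRNA in a table for each region; the miRBase release and the handling of reads that match several miRNAs are not given in the sources used here. The fold changes and p-values of the authors' own comparison in those tables were not used. Of the 1551 entries, 20 belonged to another organism (84 counts) and were left out. Members and marker lists were chosen with earlier results of these data known. The named miRNAs were the members, the other arms of their hairpins, the markers, and the 5 most alike miRNAs by each measure.

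Counts were fitted in edgeR 4.0.16 (TMM, quasi-likelihood test, Benjamini-Hochberg adjustment) for miRNAs averaging above 10 CPM, with members of at least 10 reads kept. Printed CPM use TMM over all 24 libraries. Regions were fitted within sham and within HIBI pups. Alternatives used DESeq2 1.42.0, limma 3.58.1, other scalings and filters, and each pup left out. Exact tests used a pseudocount of 1. The fits were also run on simulated data, and no result of that is given here. The closest libraries of a group, HIBI cortex of pups 5 and 7, differed by more than sampling noise (chi-square per degree of freedom 26.5). Same-numbered libraries come from 1 pup, which pairs the regions: their deviations correlated at a median of 0.27 between cerebellum and cortex (7 of 8 pups above 0.1), 0.16 between cerebellum and striatum/thalamus (5 of 8), and 0.19 between striatum/thalamus and cortex (5 of 8).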

Additional observations from a re-analysis of the deposited data

Results flagged for a closer look

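Of 40 groups of 4 pups examined, 4 held a library far from the other 3 by Dixon's test at 95%, and chance alone gives about 1 in 20. They were miR-1264-5p at 44.7 CPM in the striatum/thalamus of HIBI pup 5, miR-1298-3p at 86.8 CPM in the cerebellum of sham pup 2, miR-448-5p at 48.0 CPM in the striatum/thalamus of HIBI pup 4 (the low value of its group), and miR-448-5p at 37.1 CPM in the cortex of HIBI pup 1. The HIBI effect differed between the 2 other regions and the cerebellum, before adjustment, by 1.96 on the log2 scale for miR-1298-5p and by 2.63 for miR-1912-3p (which had 0 to 20 reads a library, so that its value depends on the prior count), by edgeR; neither passed after adjustment (adjusted p = 0.227 and 0.249), and with the pup as a block in limma they were 1.15 and 1.52, with unadjusted p values above 0.05.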

How the results depend on the processing

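Depth left miR-764-5p (2 reads) with no test and gave miR-1912-3p (131 reads) wide errors. Counts of members here include miR-1912-3p. Members meeting the criteria were 1 in the cerebellum with no filter, and in the cortex 3 with no filter, 2 with DESeq2, with the likelihood ratio test, or with a 1 CPM filter, and 0 with all libraries in 1 model. Upper quartile scaling gave 0 for striatum/thalamus over cortex in sham pups and 0 for cerebellum over cortex in HIBI pups, and the 1 CPM filter gave 0 and 1. It also moved the calls higher in the first region from 91 of 155 to 64 of 143 and from 78 of 132 to 63 of 132. Scaling by library size moved the median of all miRNAs from 0.11 to 0.27 in the cerebellum and from -0.04 to -0.22 in the difference of HIBI effects, and upper quartile scaling moved it from 0.04 to 0.21 for cerebellum over striatum/thalamus in sham pups. The cause was not tested in any of these.

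With the pup as a block, the members called between regions numbered 4, 3, and 1 in sham and 2, 0, and 0 in HIBI pups, as without it, and the block changed no call between regions. In the difference of HIBI effects no adjusted p passed either way. There edgeR without the block gave 1.96 for miR-1298-5p and 2.63 for miR-1912-3p. Limma with the block gave 1.15 and 1.52, and neither kept an unadjusted p under 0.05. The model and the block changed together, and the part of each was not tested. No paired analysis was possible for HIBI against sham because they share no pup.

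Reversed values were, in the cerebellum, miR-1264-3p at 0.20 (0.093 in the exact test) and miR-1912-3p at 0.12 by library size and miR-1264-3p at 0.000502 by likelihood ratio, and miR-1298-5p at -0.063 with the 1 CPM filter and -0.096 with none for striatum/thalamus over cortex in sham pups. Without the 2 farthest pups r was 0.66 and -0.24 for miR-1298-5p with the choroid plexus list in striatum/thalamus and cortex, and for miR-1298-3p -0.0076 and -0.047 with that list in cerebellum and striatum/thalamus, -0.21, -0.33, and -0.53 with miR-448-3p, miR-1264-5p, and miR-1298-5p in the cerebellum, and -0.43 with miR-1264-3p in the striatum/thalamus. From deviations within groups the cortex list gave 0.66 with miR-1298-5p, -0.30 with miR-1264-3p, -0.0096 with miR-1264-5p, and 0.0022 with miR-1298-3p.

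With each pup left out in turn, HIBI against sham gave 0 to 2 members in the cerebellum (2 without pup 6), 0 to 3 in the striatum/thalamus (0 without pup 2, 5, or 8), and 0 to 3 in the cortex (0 without pup 3 or 7). Sham regions gave 2 to 4 for cerebellum over cortex, 1 to 5 over striatum/thalamus, and 0 to 1 for striatum/thalamus over cortex, and HIBI regions 0 to 0, 0 to 1, and 0 to 1. Signs changed in the cerebellum for miR-1912-3p (-0.51 to 0.53), miR-1264-3p (-0.32 to 0.46), and miR-448-3p (-0.58 to 0.057), in the striatum/thalamus for miR-1298-3p (-0.37 to 0.082) and miR-1264-5p (-0.52 to 1.02), and in the cortex for miR-1298-3p (-0.47 to 0.076). For striatum/thalamus over cortex they changed in sham pups for miR-1298-5p (-0.043 to 0.26) and miR-1912-3p (-1.05 to 2.07) and in HIBI pups for miR-1264-3p (-0.94 to 0.27) and miR-1298-5p (-0.10 to 1.03). In HIBI pups they changed for cerebellum over cortex for miR-1912-3p (-0.21 to 0.38) and miR-1264-3p (-0.039 to 0.62), and over striatum/thalamus for miR-1264-5p (-0.047 to 1.09), miR-1298-3p (-0.058 to 0.35), miR-1298-5p (-0.19 to 0.94), and miR-448-3p (-0.046 to 0.73). Of the correlations, r with miR-1298-3p ran from -0.025 to 0.48 for miR-1264-5p in the cerebellum and, in the striatum/thalamus, from -0.21 to 0.58 for miR-1264-3p and from -0.11 to 0.82 for miR-1264-5p. R with the choroid plexus list ran from -0.33 to 0.62 for miR-1298-3p in the cerebellum and, in the cortex, from -0.28 to 0.26 for miR-1264-3p, -0.14 to 0.28 for miR-1264-5p, 0.60 to 0.87 for miR-1298-5p, and -0.28 to 0.13 for miR-1298-3p. Arm shares ran, for cerebellum minus cortex, from 2.86 to 7.40 points for Mir1298 and from -6.67 to -3.83 for Mir448, and for HIBI minus sham from -7.36 to 0.79 for Mir1298 in the cerebellum and from -6.53 to 0.37 for Mir448 in the cortex.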
